A study of Mus musculus with 10 samples.

Results

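The nuclear genes of oxidative phosphorylation were followed in the cerebellum and cerebral cortex of Snx14-KO mice and their controls. Members were chosen by name and level. A gene was taken when its GENCODE M21 symbol began with Nduf, Sdha, Sdhb, Sdhc, Sdhd, Uqcr, Cox4, Cox5, Cox6, Cox7, Cox8 or Atp5, was not marked as a pseudogene by "-ps", and reached a mean of 5 CPM (counts scaled to library size) over the 10 libraries. Of 55536 genes in the tables, 102 had such a symbol and 90 reached that level. They comprised 44 genes of complex I, 8 of complex II, 8 of complex III, 12 of complex IV and 18 of complex V. By role, 20 encode core subunits, 56 accessory subunits and 14 assembly factors. Ndufa4, which is now known as a subunit of complex IV, was placed there despite its name.

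The members nearest the limit were complex I assembly factors Ndufaf6 and Ndufaf8 at 7.81 and 12.5 CPM and the complex II assembly factor Sdhaf4 at 15.2 CPM. Just below it were the isoform genes Cox6b2 at 4.24 CPM, Cox7a1 at 3.41 CPM and Cox6a2 at 3.36 CPM. These values use plain library totals, whereas all other CPM values given here are scaled by the trimmed mean of M values (TMM) over the 10 libraries. The symbol Atp5o stands for 2 overlapping entries that count the same reads, so the 90 entries carry 89 symbols. For 3 members, Ndufaf2, Sdhaf1 and the shorter Atp5o entry, over 50% of the exonic bases also lie in another gene.

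Oxidative phosphorylation is the final stage of respiration in mitochondria. Complex I takes electrons from NADH and complex II takes them from succinate, and ubiquinone carries them to complex III. Cytochrome c then hands them to complex IV, which reduces oxygen, and the proton gradient built on the way drives the ATP synthase, complex V. Complexes I, III, IV and V hold subunits encoded by mitochondrial DNA beside the nuclear ones, and complex II is wholly nuclear. Neurons draw most of their ATP from this pathway, and Purkinje cells, the output neurons of the cerebellar cortex, fire continuously.

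Snx14 encodes a sorting nexin of the endoplasmic reticulum. The study asked how its loss changes transcription in the cerebellum compared with the cortex. All mice were 1 year old and on a C57BL/6J background. The KO mice carried a frameshift deletion of Snx14 in every cell of the body. Controls 1 and 2 were Het and control 3 was WT, and KO 1 and KO 2 were labelled Snx14 KO. Each of the 5 mice gave both tissues, so each tissue had 3 control and 2 KO libraries. RNA came from whole tissue, in which fewer cells of a type and less RNA per cell cannot be told apart.

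Library totals ran from 16088310 to 22975355 gene counts. Snx14 stood at 42.8, 39.9 and 73.2 CPM in cerebellum controls 1 to 3 and at 15.5 and 17.4 CPM in the KO libraries, and in cortex at 34.3, 34.9 and 50.8 CPM against 14.8 and 16.1 CPM. Every KO library lay below every control, and the WT control lay above the Het controls. The summed level of 12 granule cell markers was 5212 to 6239 CPM in cerebellum and 212 to 268 CPM in cortex, and that of 12 cortical excitatory markers was 531 to 606 CPM and 4659 to 7545 CPM. Xist was at 0.231 and 3.19 CPM in cerebellum and cortex of control 2, at 0.455 and 1.99 CPM in KO 2, and between 799.9 and 959 CPM in every library of the other mice, which marks control 2 and KO 2 as male. The 37 mitochondrially encoded genes were listed at 0 in every library, so the mitochondrial partners of complexes I, III, IV and V could not be compared.

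The clearest pattern among the members was that of a single mouse. Control 2 was the highest of the 3 controls for 83 of 90 members in cerebellum and for 89 of 90 in cortex, against 39.7% and 43.2% of the 13463 genes with a mean of at least 5 CPM. The summed level of all members in cerebellum was 12714, 14535 and 12784 CPM in controls 1, 2 and 3 and 13282 and 12818 CPM in KO 1 and KO 2. In cortex it was 10910, 14130 and 10626 CPM in the controls and 10327 and 11173 CPM in the KO libraries. Controls 1 and 3 and both KO libraries therefore lay close together in each tissue, and control 2 lay above them all. The count and median over all members in each comparison are for that reason given with and without this mouse. Without control 2 the remaining controls were female by Xist, while KO 2 was male. Sex was then not balanced between KO and control, and its part was not tested.

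**Figure D1:**
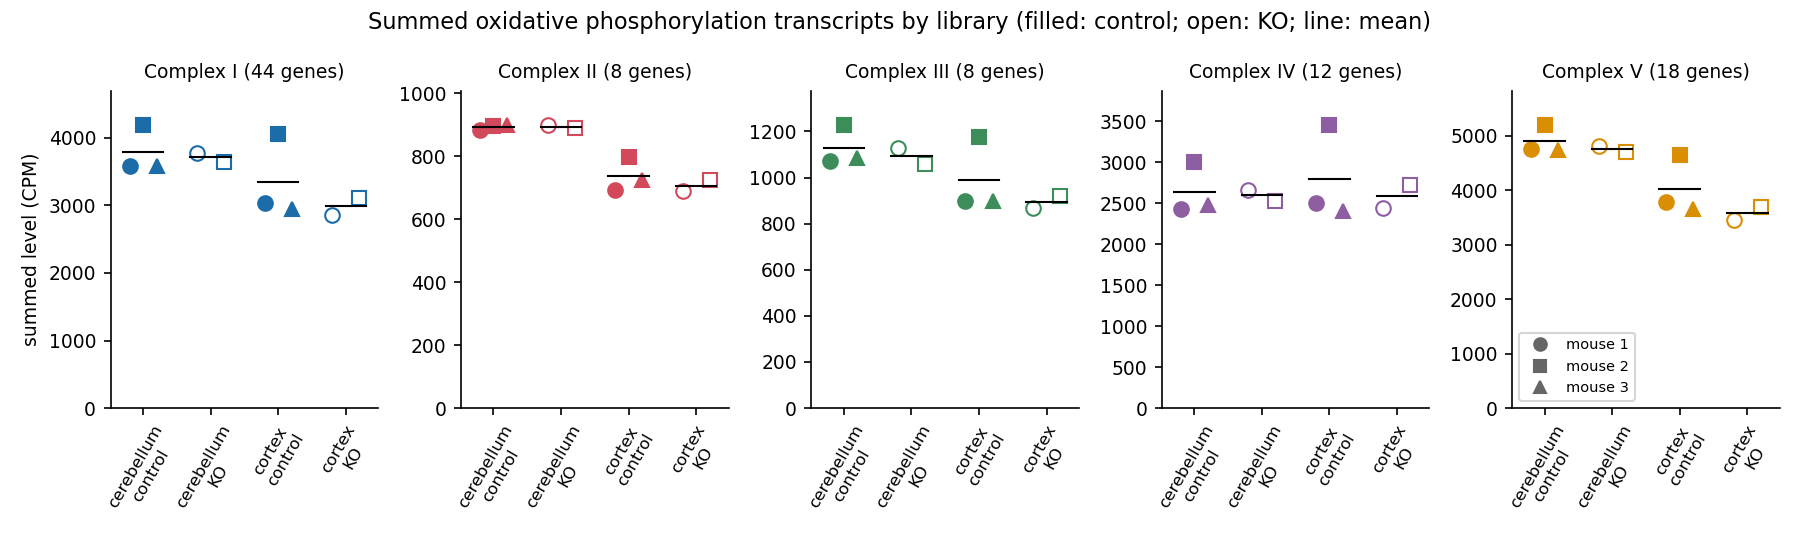
Summed level in CPM of the members of each complex (y axis, from 0) in every library, grouped by tissue and genotype (x axis). Circles, squares and triangles are mice 1, 2 and 3 of a group, filled for controls and open for KO, and lines are group means. Control 2 sits above the other cortex libraries in all 5 complexes, and in cerebellum it stands apart in complexes I, III, IV and V, whereas complex II there spans only 884 to 901 CPM over the 5 libraries.

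The excess of control 2 varied over the complexes, without a test of that variation. On log2(CPM + 1), it exceeded the mean of the other controls by a median of 0.46 for complex I, 0.25 for complex II, 0.50 for complex III, 0.54 for complex IV and 0.40 for complex V in cortex. The corresponding cerebellum values were 0.22, 0.06, 0.31, 0.32 and 0.24. Complex II had the smallest excess in both tissues and complex IV the largest. Ribosomal protein genes were also high in this mouse. The 82 cytosolic ribosomal protein genes with a mean of at least 1 CPM had a median excess of 0.55 in cortex and 0.32 in cerebellum, and the 78 mitochondrial ribosomal protein genes 0.30 and 0.13. Enzymes of the citric acid cycle and pyruvate dehydrogenase, which work beside the respiratory chain, had medians of 0.12 and -0.00.

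The excess varied with exon length, though not steadily. The members are short, with a median joined exon length of 1773 bases against 4454 bases for all genes with a mean of at least 5 CPM. In cortex the median excess of control 2 was 0.21 for all genes of 1000 to 2000 bases and -0.13 for genes above 8000 bases, and in cerebellum it was 0.10 and -0.08. For genes of up to 1000 bases it was smaller than for those of 1000 to 2000, at 0.09 in cortex and 0.06 in cerebellum. The 20 members of up to 1000 bases had 0.51 and 0.29. Members of 1000 to 2000 bases had a median excess of 0.50 in cortex and 0.27 in cerebellum, above that of all genes of their length. Markers of other cell types also differed in this mouse. The summed level of 13 striatal markers in cortex was 4598 CPM in control 2, 2070 and 1882 CPM in controls 1 and 3, and 1174 and 624 CPM in KO 1 and KO 2. The KO cortex libraries thus also differed from the other controls. Without control 2, all 13 were lower in KO cortex, with a median log2 difference of -1.26. Of them 9 were called, against 98 of the 18968 genes tested. The summed level of 10 oligodendrocyte markers in cortex was 9087 CPM in control 2 and between 4915 and 5368 CPM in the other 4 libraries. The summed level of 12 cortical excitatory markers was lowest in cortex control 2, at 4659 CPM, against 6932 to 7545 CPM in the other cortex libraries. In cerebellum the striatal markers ran from 456 to 551 CPM and were lowest in control 2, and the oligodendrocyte markers stood at 4530, 6813 and 5550 CPM in controls and 6021 and 7723 CPM in KO. Control 2 was also low in markers of the choroid plexus and of fibroblasts. In cerebellum the 8 choroid plexus markers summed to 2890, 1205 and 3435 CPM in controls and 62.2 and 2949 CPM in KO, and the 8 fibroblast markers to 276, 111 and 219 CPM in controls and 222 and 336 CPM in KO. The fibroblast sum in cortex was 147, 69.5 and 95.4 CPM in controls and 129 and 156 CPM in KO. No marker of these 5 lists was at 0 in a whole group. The part of length, of these cells and of sex in the excess was not tested.

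**Figure D2:**
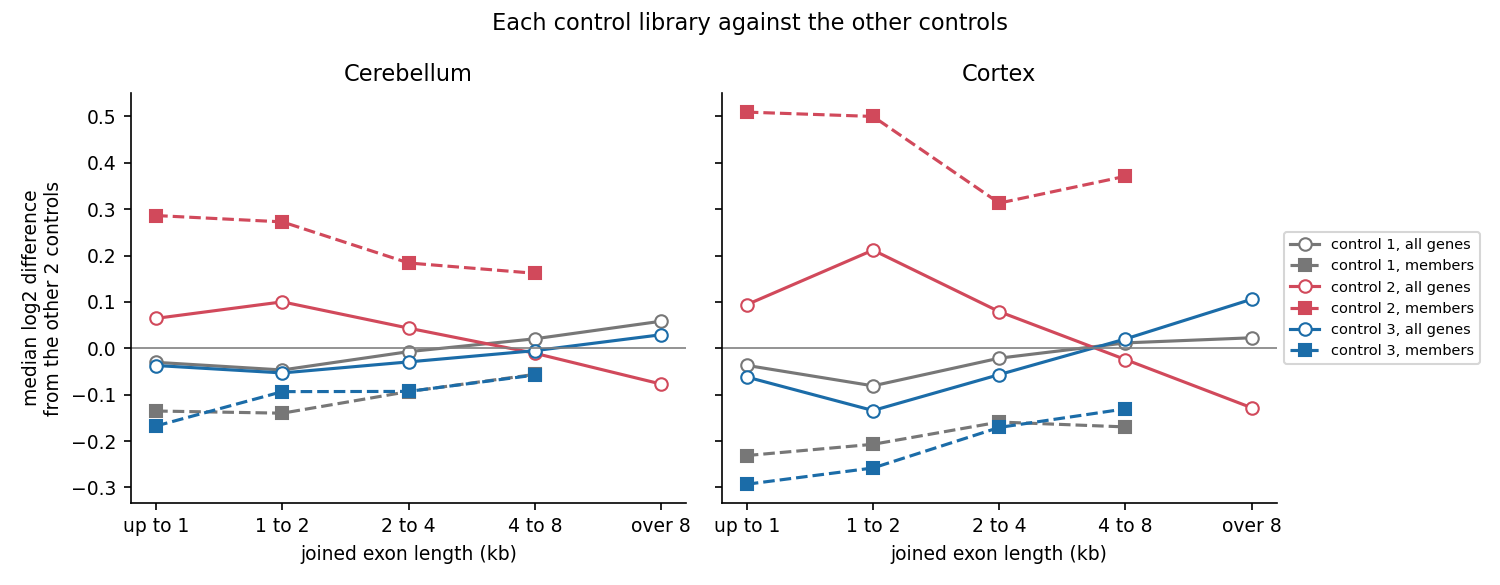
Median log2 difference of each control library from the mean of the other controls (y axis) by joined exon length in kb (x axis), for all genes with a mean of at least 5 CPM (open circles, solid lines) and for the members (squares, dashed lines). The members of control 2 lie above all genes of the same length in both tissues, and the lines of controls 1 and 3 stay below 0 for the members. The single member above 8 kb is not drawn.

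The levels of the members spanned a wide range when divided by joined exon length. In cerebellum controls the median per kb was 52.7 CPM for complex I, 20.3 CPM for complex II, 107 CPM for complex III, 142 CPM for complex IV and 76.7 CPM for complex V. In cortex controls these medians were 46.4, 18.4, 79.3, 129 and 74.1 CPM per kb, so both tissues kept complex IV highest and complex II lowest. The low median of complex II came with its 4 assembly factors. Its catalytic flavoprotein Sdha had 122 ± 3.47 CPM per kb in cerebellum (SD, n = 3) and the assembly factor Sdhaf3 had 3.45 ± 0.178. Levels per kb depend on the length used, because the joined exons of a gene can be much longer than its main transcript.

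In each complex, levels per kb in cerebellum controls named the following extremes. Ndufc2, an accessory subunit of the membrane arm, led complex I at 162 ± 19.8 CPM per kb, and the assembly factor Ndufaf2 was lowest at 5.99 ± 0.873. The small subunit Uqcr10 led complex III at 143 ± 22.6 CPM per kb and the large subunit Uqcrc1 was lowest at 44.3 ± 1.21. Cox8a, which encodes a small subunit of complex IV, reached 503 ± 60.3 CPM per kb and Cox5a 59.9 ± 3.22. In complex V, Atp5b, the catalytic beta subunit, stood at 334 ± 7.91 CPM per kb, beside 331 ± 2.39 for the alpha subunit Atp5a1 and 330 ± 33.1 for the short Atp5o entry, and Atp5s was lowest at 8.92 ± 0.819. These 3 leading values lay within their spread of each other, and in cortex controls the short Atp5o entry led at 293 ± 61.6. Per kb of the principal transcript, chosen after the data were seen, Ndufb8 led complex I at 194 CPM per kb, Uqcrh led complex III at 286 and Cox4i1 led complex IV at 633, while Sdha and Atp5b kept their place at 174 and 739. The leading gene of complexes I, III and IV thus depended on the length used.

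To ask whether loss of Snx14 changed these genes in the cerebellum, the 5 cerebellum libraries were compared with edgeR's quasi-likelihood test. Calls required an absolute log2 difference over 0.5 and, after Benjamini-Hochberg adjustment over all genes, a p under 0.05. None of the 90 members was called, against 1.55% of the 19447 genes tested. None passed the adjusted p alone either, against 2.14% of all genes. At an unadjusted p under 0.05 there were 3 members, or 3.33%, against 13.4% of all genes, and DESeq2 likewise called none and had 2 at that unadjusted p. The largest absolute log2 difference was 0.18. For all 90 members an interval of 2 standard errors (SE, derived from the F statistic) on each side lay within 0.5 of no change. The median SE was 0.10. In the same libraries, 20 of 22 Purkinje markers were called lower in KO, with summed levels of 6703 to 6898 CPM against 12461 to 14423 CPM in controls. This list was chosen with earlier results of these data known, so that count is not independent of them. Not all of its genes are particular to Purkinje cells. Kcnab1 had means of 159.5 CPM in cerebellum controls and 163.5 CPM in cortex controls.

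The 3 members with the smallest p had log2 differences below 0. Sdhd, a membrane anchor of complex II, stood at 94.0, 101 and 97.6 CPM in controls 1 to 3 and at 87.7 and 85.8 CPM in KO. The KO libraries lay below all controls, with a log2 difference of -0.18 (SE 0.06) and an adjusted p of 0.25 by edgeR. Ndufs1, which holds iron-sulfur clusters of complex I, stood at 212, 220.1 and 215 CPM in controls and at 196 and 191 CPM in KO, a log2 difference of -0.17 (SE 0.06, edgeR adjusted p = 0.28). Atp5g1, a gene for the c subunit that forms the rotating ring of complex V, stood at 129.7, 145 and 130.0 CPM in controls and 118 and 123 CPM in KO, a log2 difference of -0.17 (SE 0.07, edgeR adjusted p = 0.35). In all 3 genes both KO libraries lay below the lowest control. Uqcrc2, a large subunit on the matrix side of complex III, and Atp5f1, which encodes the peripheral stalk subunit b of complex V, came next with log2 differences of -0.13 and -0.15.

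Those with the smallest p above 0 were not called. Ndufb10, an accessory subunit of complex I, stood at 116, 135 and 115 CPM in controls and at 135 and 133 CPM in KO, with a log2 difference of 0.13 (SE 0.08, edgeR adjusted p = 0.58). Its KO libraries lay at the level of control 2 and above controls 1 and 3. The others were Ndufv1, which binds NADH in complex I, the ubiquitous isoform Cox4i1, the respiratory supercomplex factor Cox7a2l and the small complex V subunit Atp5k, with log2 differences between 0.08 and 0.16. Without control 2, Ndufb10 had the smallest adjusted p of all members, 0.10 by edgeR, at a log2 difference of 0.21.

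As a list, 70 of 90 members had a log2 difference below 0 in cerebellum, with a median of -0.05, against 49.8% of all genes and a median of 0.00. By complex the medians were -0.05 for I, -0.04 for II, -0.03 for III, -0.06 for IV and -0.03 for V. Without control 2 they were 0.04, -0.02, 0.07, 0.05 and 0.03 in the same order. Without control 2, 57 of 90 members were above 0 and the median was 0.04, so the direction of the list rested on that library. There were 12 members with both KO libraries below all controls, or 13.3%, against 14.6% of all genes. No member had both above, against 15.4%, and for 83 members that would have meant exceeding control 2.

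In cortex none of the 90 members was called, against 0% of the 19202 genes tested. No gene passed the adjusted p in this edgeR fit, so Snx14, the gene mutated in the KO mice, was not called either. The lack of called members in this fit is therefore not informative by itself. By DESeq2 on the same libraries, 0.255% of the 19202 genes passed the adjusted p, and no member did. Without control 2, 98 of 18968 genes were called, and again no member. No member had an unadjusted p under 0.05, against 5.93% of all genes, and DESeq2 gave 0 members by either measure. The median SE was 0.16, larger than in cerebellum, and only for 59 of 90 members did the interval of 2 SE on each side stay within 0.5 of no change. The test in cortex was accordingly less able to show a difference of that size. The member with the smallest p was Uqcrc1, at 178, 195 and 186 CPM in controls and 163 and 162 CPM in KO, with a log2 difference of -0.19 (SE 0.09, edgeR adjusted p = 0.87). Its KO libraries lay below all controls, and without control 2 the difference was -0.15.

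The next members below 0 in cortex were Ndufa9, an accessory subunit of complex I, Sdhaf1, an assembly factor of complex II, and the complex II subunits Sdhb and Sdhc, with log2 differences of -0.21, -0.25, -0.20 and -0.18. For all 4, both KO libraries lay below all controls. Sdhaf1 shares over 50% of its exonic bases with another gene. The members above 0 in cortex numbered 5 and were Sdhaf3, Sdha, Ndufaf4, Ndufa8 and Cox8a, with log2 differences between 0.01 and 0.17. Their adjusted p lay between 0.90 and 0.99 by edgeR.

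The remaining 85 members had a log2 difference below 0 in cortex, against 49.8% of all genes, and the median was -0.15, against 0.00. The medians by complex were -0.16 for I, -0.13 for II, -0.12 for III, -0.12 for IV and -0.15 for V. Leaving out control 2 moved the median to 0.02, with 52 of 90 members above 0. The KO libraries remained lower in striatal markers than the controls kept in that comparison. Complex IV then had 11 of 12 members above 0 and a median of 0.09, and complexes II and V had medians of -0.02 and -0.02. Leaving out any other single cortex library kept the median between -0.22 and -0.11. Both KO libraries lay below all controls for 9 members, or 10%, against 14.2% of all genes, and above them for none, against 10.5%.

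**Figure D3:**
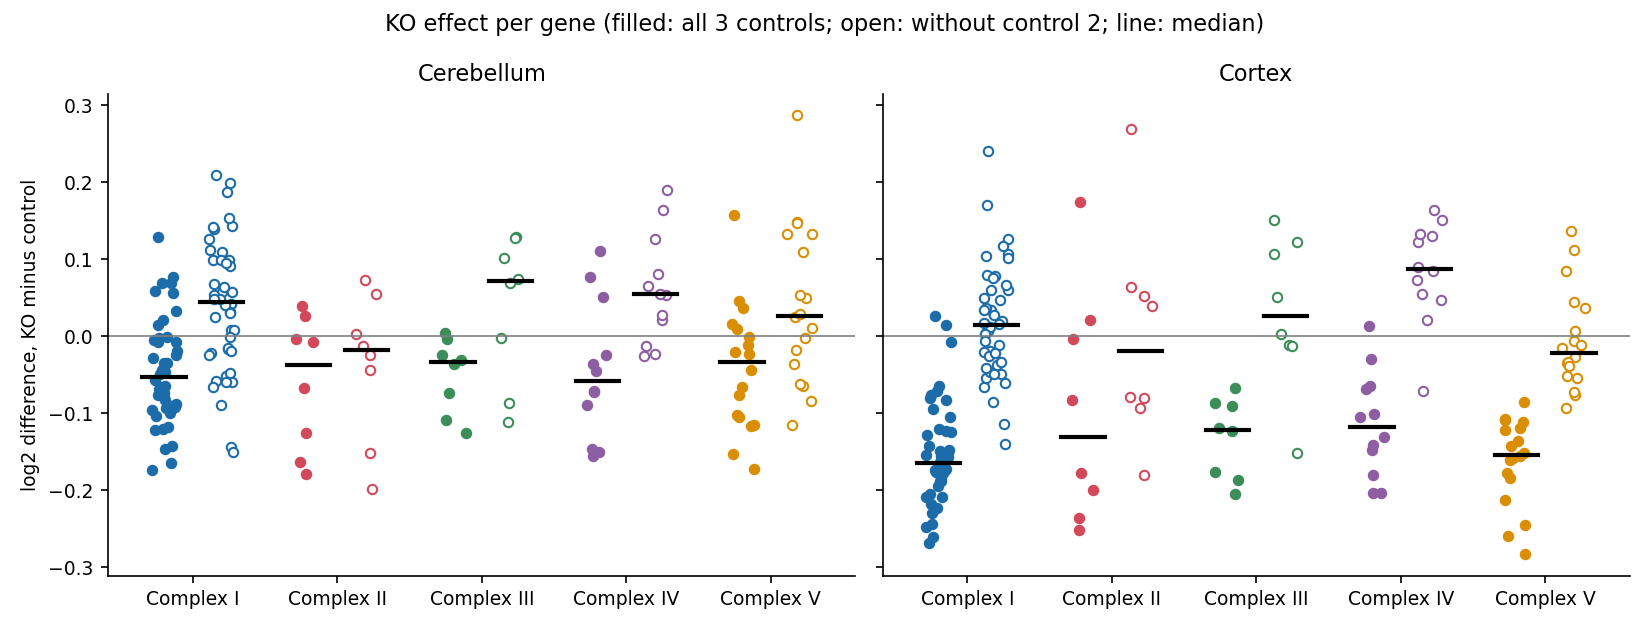
Log2 difference of KO minus control (y axis) for each member by complex (x axis) in cerebellum (left) and cortex (right). Filled points use all 3 controls, open points leave out control 2, and lines are medians. In cortex the filled points lie almost all below 0, and the open points lie on both sides of it, with a median of 0.02 over all members.

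No member had a KO effect that differed between the tissues at an adjusted p under 0.05, against 0.102% of the 20614 genes in the fit of all 10 libraries. At an unadjusted p under 0.05 there was 1 member by edgeR, against 8.28% of all genes, and 0 by DESeq2. That member was Uqcrc1, whose effect in cerebellum exceeded that in cortex by 0.21 on the log2 scale (SE 0.10, edgeR adjusted p = 0.60). In cerebellum its values were 189, 181 and 179 CPM in controls and 182 and 187 CPM in KO, which overlap. Sdhc and Sdhaf3 followed, with differences of 0.24 (SE 0.12) and -0.31 (SE 0.17) in the effects and adjusted p of 0.67 and 0.68 by edgeR. The difference was above 0 for 83 of 90 members, against 55% of all genes, with a median of 0.11. Without control 2 in cortex this became 26 of 90 with a median of -0.05, and without control 2 in both tissues 46 of 90 with a median of 0.01.

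The larger differences among the members lay between tissues. In control mice, 4 of 90 members were called, against 40.9% of the 20614 genes tested, and at an adjusted p under 0.05 with no minimum fold there were 25, or 27.8%, against 55.4%. Of these 25, 22 were higher in cerebellum, against 27.6% of all genes, and 3 lower, against 27.8%. A difference above 0 was found for 66 of 90, against 51.1%. Control libraries of the tissues did not overlap for 14 members with the higher values in cerebellum and for 3 with the lower, or 15.6% and 3.33%, against 30.6% and 30.2%. The members were thus called in a smaller share than the genes at large, and their absolute log2 differences reached only 0.53. The median over all 90 was 0.15, against 0.02 for all genes. When the tissues were paired within each mouse by an animal block, 41 members passed the adjusted p, including all 25, and 35 were higher in cerebellum. The number called was again 4, with Ndufs1 at 0.504 in place of Cox6a1 at -0.487, which fell short of the minimum fold. Without cortex control 2, 57 passed and the median was 0.32, and without cerebellum control 2, 16 passed and the median was 0.06. Leaving out control 2 in both tissues gave 54 members and a median of 0.22. Leaving out cortex control 1 or cortex control 3 gave 16 and 18 members, with medians of 0.07 and 0.04. In 13 members the adjusted p stayed under 0.05 in all 14 fits: Ndufs1, Ndufv3, Ndufab1 and Ndufaf7 of complex I, Sdha, Sdhc, Sdhd and Sdhaf1 of complex II, Uqcrc2 and Uqcrfs1 of complex III, Cox6a1 of complex IV, and Atp5a1 and Atp5b of complex V.

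**Figure D4:**
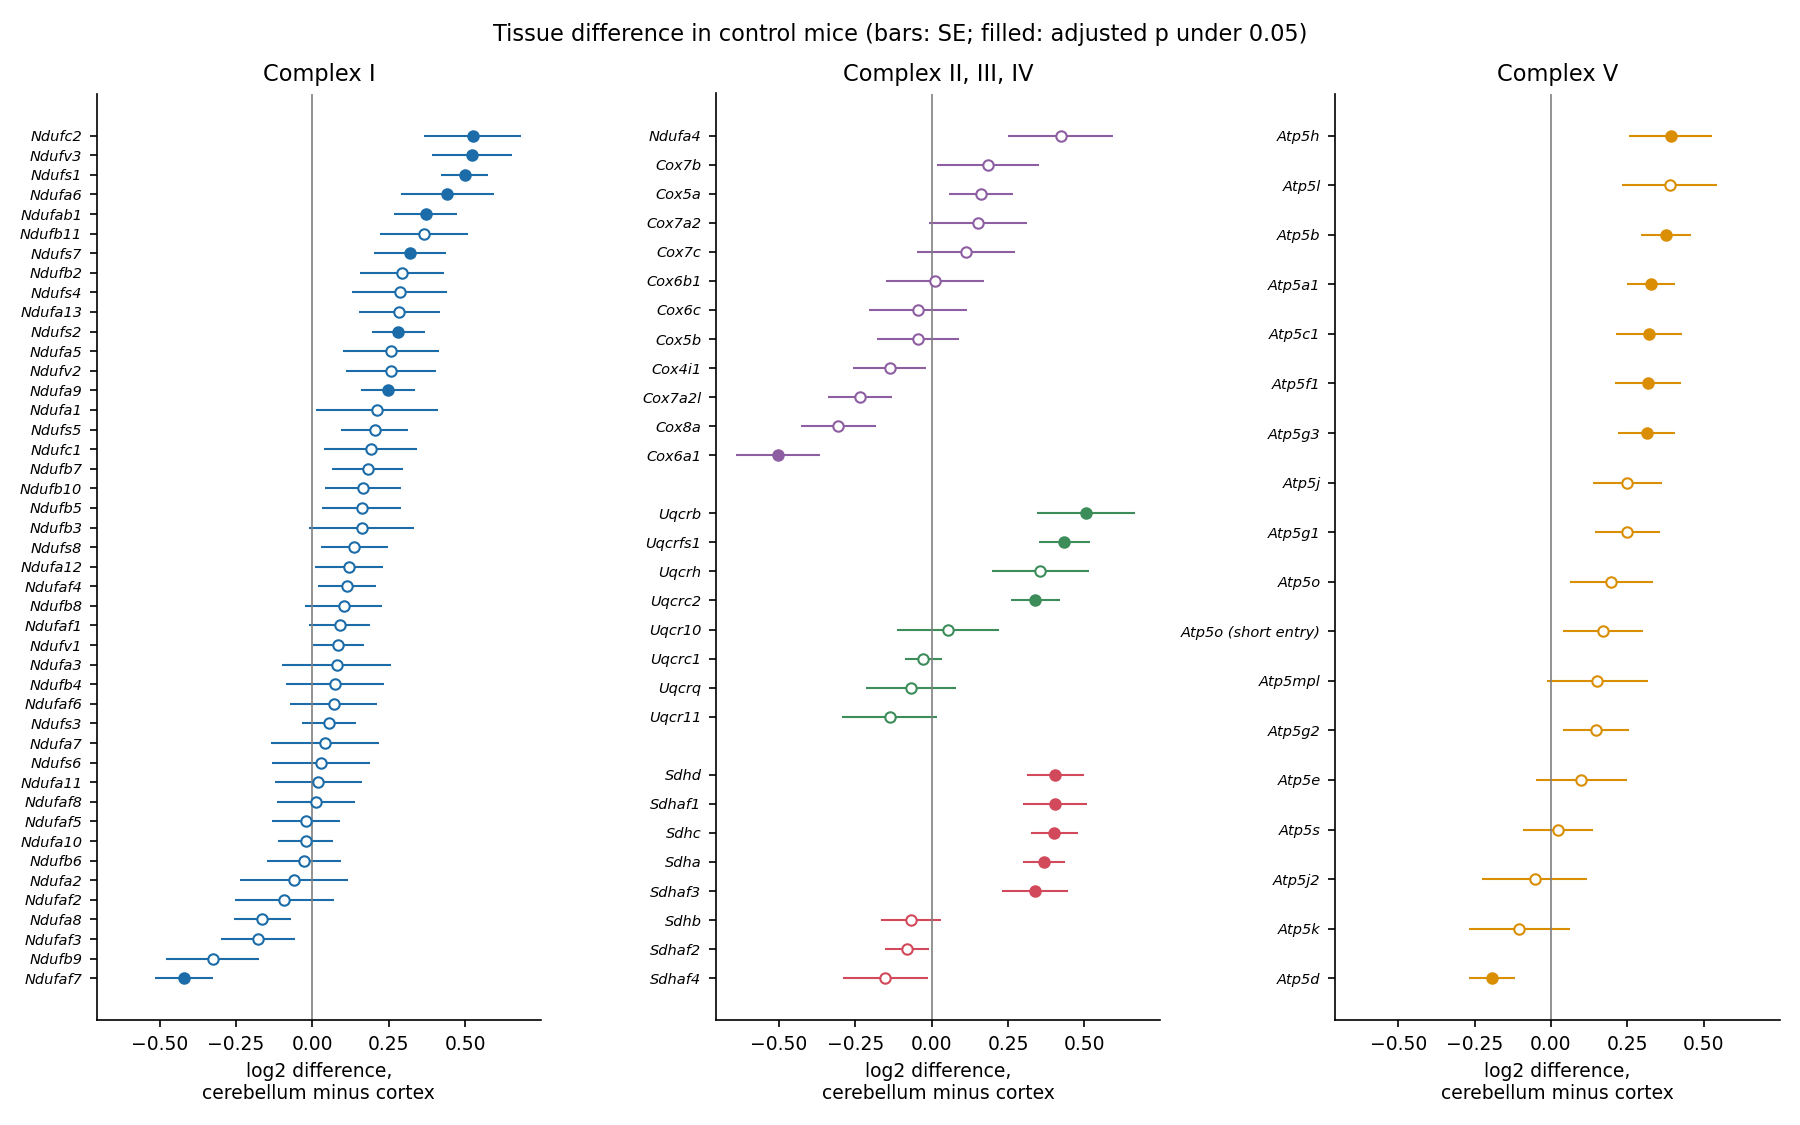
Log2 difference of cerebellum minus cortex in control mice (x axis) for each of the 90 members, in order within its complex, with bars of 1 SE and filled points at an adjusted p under 0.05. Complex II splits into 5 filled points between 0.34 and 0.41 and 3 open points from -0.15 to -0.07, and complex IV has Cox6a1 at -0.50 as its only filled point.

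The 3 members called higher in cerebellum were Ndufc2, Ndufv3 and Uqcrb. Ndufc2 (ENSMUSG00000030647.8) stood at 108, 138 and 121 CPM in cerebellum of controls 1, 2 and 3 and at 77.8, 110.1 and 66.3 CPM in their cortex. Each mouse had the higher value in cerebellum, although the groups overlapped through cortex control 2, and the log2 difference was 0.53 (SE 0.16, edgeR adjusted p = 0.015). Ndufv3, an accessory subunit beside the NADH-binding site of complex I, stood at 81.1, 100.0 and 75.8 CPM in cerebellum and 52.6, 72.3 and 53.7 CPM in cortex, and the groups did not overlap (log2 difference 0.52, SE 0.13, edgeR adjusted p = 0.0056). Uqcrb, a small subunit of complex III near the ubiquinone site, stood at 81.6, 114 and 86.1 CPM against 56.1, 82.4 and 59.8 CPM (log2 difference 0.50, SE 0.16, edgeR adjusted p = 0.020). For Uqcrb, 43.4% of the 50-base stretches of its principal transcript also occur in other genes. Its count is therefore less certain than that of Ndufv3, which shares none.

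Ndufs1 came just short of the fold limit and had the smallest adjusted p of all members. Its values were 212, 220.1 and 215 CPM in cerebellum and 149, 169.7 and 139 CPM in cortex, with a log2 difference of 0.50 (SE 0.08, edgeR adjusted p = 0.00024). The gene lies at chr1:63143596-63176833 on the minus strand of GRCm38. Every cortex library lies below all cerebellum libraries. Next came the iron-sulfur protein of complex III, Uqcrfs1, at 140.4, 149 and 145 CPM against 100.2, 123 and 98.5 CPM (log2 difference 0.43, SE 0.08, edgeR adjusted p = 0.0011), and Ndufa6, an accessory subunit of complex I, with a log2 difference of 0.44 (SE 0.15, edgeR adjusted p = 0.029). Uqcrfs1 did not overlap between tissues, and Ndufa6 did.

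Cox6a1 (ENSMUSG00000041697.8), the non-muscle isoform of a regulatory subunit of complex IV, was the only member called lower in cerebellum. It stood at 289, 349.6 and 290.2 CPM in cerebellum and at 401, 547 and 366 CPM in cortex, so the groups did not overlap (log2 difference -0.50, SE 0.14, edgeR adjusted p = 0.0092). In each of the 3 mice the cortex value was the higher. With the animal as a block its adjusted p was 0.00024, but the log2 difference of -0.487 did not reach the minimum fold, so it was not called. Ndufaf7, a methyltransferase that assists complex I assembly, stood at 27.9, 31.1 and 27.5 CPM against 36.6, 41.7 and 37.3 CPM (log2 difference -0.42, SE 0.09, edgeR adjusted p = 0.0031). Atp5d, the delta subunit of the complex V stalk, was lower by a log2 difference of -0.19 (SE 0.07, edgeR adjusted p = 0.047), and its adjusted p ranged up to 0.36 over the alternative fits.

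The number of members that passed was counted by complex, against 27.6% of all genes higher and 27.8% lower. Complex II had 5 of 8 higher in cerebellum at an adjusted p under 0.05 and a median log2 difference of 0.35, complex III 3 of 8 with a median of 0.20, complex V 6 of 18 higher and 1 lower with a median of 0.22, and complex I 8 of 44 higher and 1 lower with a median of 0.13. Complex IV had 0 of 12 higher and 1 lower, with a median of -0.02. These counts depended on single libraries, except in complex II with 4 or 5 higher throughout. Without cortex control 2, 27 of 44 members of complex I, 4 of 8 of complex III, 5 of 12 of complex IV and 14 of 18 of complex V were higher. Without cortex control 1, cortex control 3 or cerebellum control 2, 3 members of complex I, 2 of complex III, 0 of complex IV and 2 of complex V were higher. Without cortex control 2 the medians were 0.31, 0.39, 0.35, 0.20 and 0.37 for complexes I to V, so that of complex IV was again the lowest. By role, 18 of 20 core subunits were above 0 with a median of 0.30, and 11 passed as higher and 1 as lower. The accessory subunits had a median of 0.16 with 9 higher and 1 lower of 56, and the 14 assembly factors a median of -0.01 with 2 higher and 1 lower. The counts by role include control 2. Differences between complexes or roles were not tested.

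Within complex II, 3 of the 4 subunits passed. Sdha stood at 511, 488 and 514 CPM in cerebellum controls and 372, 399 and 400.1 CPM in cortex controls (log2 difference 0.37, SE 0.07, edgeR adjusted p = 0.00092). Sdhc, another membrane anchor, stood at 73.2, 76.9 and 75.9 CPM against 52.8, 64.2 and 54.0 CPM (0.40, SE 0.08, adjusted p = 0.0011), and Sdhd at 94.0, 101 and 97.6 CPM against 66.3, 86.6 and 68.1 CPM (0.41, SE 0.09, adjusted p = 0.0037). All 3 were higher in cerebellum without overlap. The iron-sulfur subunit Sdhb stood at 114, 134 and 118 CPM against 118, 148 and 118 CPM, with a log2 difference of -0.07 (SE 0.10, adjusted p = 0.58). Its groups overlapped, and its difference from the other subunits was not tested.

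Each mouse could also be compared with itself. The median log2 difference of cerebellum minus cortex over the 90 members, on log2(CPM + 1), was 0.20 in control 1, 0.01 in control 2, 0.27 in control 3, 0.38 in KO 1 and 0.19 in KO 2. Control 2 was the only one of the 5 mice with a median near 0, with 47 members higher and 43 lower in cerebellum. In the other mice between 67 and 81 members were higher. Complex IV had the lowest median of the 5 complexes in every mouse, from -0.12 in control 2 to 0.19 in KO 1.

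Several subunits of complex IV exist as isoforms from separate genes, one of which is usually ubiquitous and the other restricted to certain tissues. The ubiquitous isoforms Cox4i1, Cox6a1, Cox6b1, Cox7a2 and Cox8a were members, and the restricted isoforms Cox4i2, Cox6a2, Cox6b2, Cox7a1, Cox7b2, Cox8b and Cox8c were below the limit of 5 CPM. The 5 restricted isoforms that could be tested had larger absolute log2 differences between tissues than any member. Cox6a2, the heart and skeletal muscle isoform, stood at 0.0467, 0.231 and 0.457 CPM in cerebellum controls and at 5.09, 8.56 and 5.28 CPM in cortex controls, and the groups did not overlap. Its log2 difference was -4.68 (SE 0.43, edgeR adjusted p = 4.2e-06). The cerebellum values rest on few counts. In the KO mice Cox6a2 was at 0.549 and 0.331 CPM in cerebellum and 6.90 and 7.13 CPM in cortex, again without overlap.

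Other restricted isoforms were higher in cerebellum. Cox6b2, known from testis, stood at 4.67, 7.03 and 6.96 CPM in cerebellum controls and 1.5, 2.63 and 1.35 CPM in cortex controls (log2 difference 1.75, SE 0.27, edgeR adjusted p = 0.00023). Cox7a1, the muscle form of subunit 7a, stood at 5.18, 6.24 and 5.13 CPM against 1.38, 2.63 and 1.35 CPM (log2 difference 1.61, SE 0.25, edgeR adjusted p = 0.00022). Both were higher in cerebellum in every mouse and without overlap. Cox8b had a log2 difference of 1.46 (SE 0.44, edgeR adjusted p = 0.015), and its adjusted p reached 0.056 among the alternative fits. Cox4i2, an isoform known from lung, had 0.64 (SE 0.30, adjusted p = 0.088). Cox7b2 and Cox8c were too low to be tested between tissues, and Cox8c was listed at 0 in every library.

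**Figure D5:**
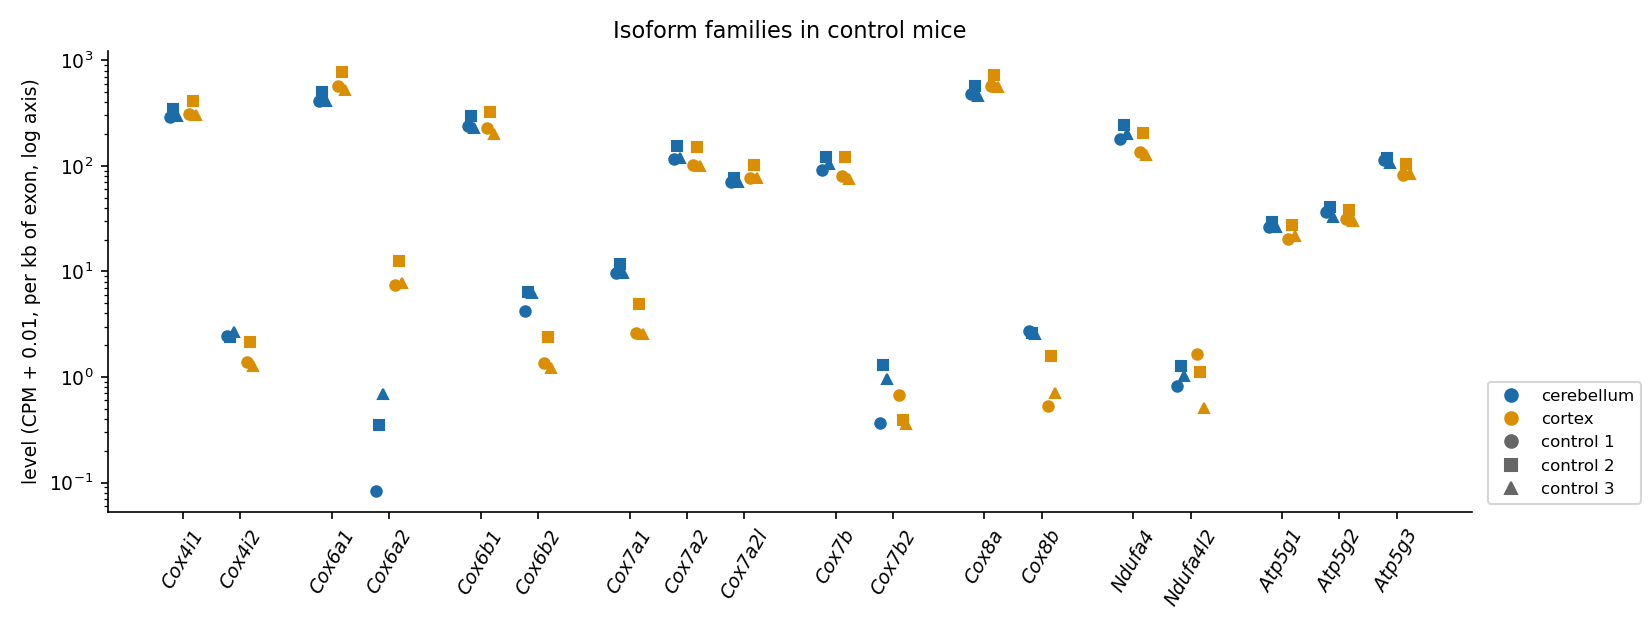
Level per kb of joined exon (CPM + 0.01, log axis) of isoform families in the 3 control mice, with cerebellum in blue and cortex in orange and circles, squares and triangles for controls 1, 2 and 3. The means of Cox4i1, Cox6a1, Cox6b1, Cox7a2 and Cox8a lie between 117 and 624 CPM per kb, while Cox6a2 lies higher in cortex and Cox6b2, Cox7a1 and Cox8b higher in cerebellum. Cox8c, listed at 0, is not drawn.

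Among the ubiquitous isoforms, Cox8a stood at 299.8, 353 and 282 CPM in cerebellum and 353, 454 and 349 CPM in cortex, a log2 difference of -0.31 (SE 0.12, edgeR adjusted p = 0.055). With the animal as a block its adjusted p was 0.0076. Cox4i1, Cox5a, Cox5b, Cox6b1, Cox7a2 and Cox7b had log2 differences between -0.14 and 0.19 and none passed. Ndufa4 stood at 248, 339 and 274 CPM against 185, 282 and 175 CPM, a log2 difference of 0.42 (SE 0.17, edgeR adjusted p = 0.058), which was 0.0012 with the animal as a block. Its paralogue Ndufa4l2, a gene induced by low oxygen, was at 0.552 to 1.80 CPM in the control libraries and had a log2 difference of -0.07 between tissues (SE 0.38, edgeR adjusted p = 0.88). In no isoform family was a member gene called between KO and control in either tissue. Over all genes 1.55% were called in cerebellum and 0% in cortex.

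The c subunit of complex V is encoded by Atp5g1, Atp5g2 and Atp5g3, which differ in the peptide that targets them to mitochondria. Per kb of joined exon in cerebellum controls, Atp5g3 stood at 112 ± 6.41 CPM, Atp5g2 at 36.8 ± 4.09 and Atp5g1 at 27.5 ± 1.83 (SD, n = 3), and the order was the same in cortex at 90.5 ± 12.1, 33.2 ± 4.69 and 23.1 ± 3.91. Atp5g3 was higher in cerebellum (log2 difference 0.31, SE 0.09, edgeR adjusted p = 0.014). Atp5g1 and Atp5g2 had 0.25 and 0.15 with adjusted p of 0.065 and 0.27. For Atp5g2, 87.4% of the 50-base stretches of its principal transcript occur in other genes, which makes its count uncertain.

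Promoter sequences are shown for the called members that have a RefSeq window and for Sdhd, the member with the smallest p in KO cerebellum. RefSeq windows of GRCm38.p6 matched 75 of 90 members and 20512 of all genes, and the 250 bases before the start site were searched on both strands. The letters searched were GCATGC for NRF1, CCGGAAG for ETS factors such as GABP, AAGGTCA for ERR, AAGATGG for YY1, GGGCGG for SP1 and TATAAA for a TATA box. Both Atp5o entries match the same window, which holds GCATGC and is counted for each. GCATGC occurred in 16% of the members, in 8.59% of the 9790 matched genes with a mean of at least 5 CPM, the level the members had to reach, and in 6.91% of all genes. In the same order CCGGAAG occurred in 20%, 13.8% and 8.56%, AAGGTCA in 6.67%, 2.48% and 3.70%, GGGCGG in 40%, 60.6% and 39.5%, and TATAAA in 6.67%, 5.84% and 12.2%. AAGATGG was in none of the members, in 4.21% of genes of their level and in 4.22% of all genes before the start site, and in 13.3%, 7.34% and 6.39% of windows that also hold the first 50 bases of the transcript. Capitals mark these letters below, which overlap in none of the printed sequences.

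The windows were Ndufc2 at chr7:97399753-97400002 and Ndufv3 at chr17:31519865-31520114, both on the plus strand, and Cox6a1 at chr5:115348959-115349208 and Sdhd at chr9:50603850-50604099, both on the minus strand, each read 5′ to 3′.
Ndufc2: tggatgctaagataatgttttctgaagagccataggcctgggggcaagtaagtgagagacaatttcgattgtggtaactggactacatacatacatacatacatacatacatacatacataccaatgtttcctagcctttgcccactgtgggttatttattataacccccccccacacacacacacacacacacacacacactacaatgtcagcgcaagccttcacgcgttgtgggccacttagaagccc
Ndufv3: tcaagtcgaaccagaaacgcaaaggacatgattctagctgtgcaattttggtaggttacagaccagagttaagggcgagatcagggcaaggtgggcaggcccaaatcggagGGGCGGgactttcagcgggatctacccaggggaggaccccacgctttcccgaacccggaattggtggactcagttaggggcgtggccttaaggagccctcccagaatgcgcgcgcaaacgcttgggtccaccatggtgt
Cox6a1: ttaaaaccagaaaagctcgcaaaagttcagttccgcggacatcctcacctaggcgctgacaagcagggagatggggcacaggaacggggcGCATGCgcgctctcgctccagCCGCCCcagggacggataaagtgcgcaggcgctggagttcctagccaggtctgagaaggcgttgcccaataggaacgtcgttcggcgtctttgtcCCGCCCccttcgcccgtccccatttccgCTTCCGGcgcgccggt
Sdhd: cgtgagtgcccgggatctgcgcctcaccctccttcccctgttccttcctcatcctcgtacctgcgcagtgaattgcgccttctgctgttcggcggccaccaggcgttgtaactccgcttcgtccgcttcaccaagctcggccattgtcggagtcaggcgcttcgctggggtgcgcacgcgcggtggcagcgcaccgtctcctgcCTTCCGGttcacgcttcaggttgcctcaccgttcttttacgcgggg
Cox6a1, the member called lower in cerebellum, holds 4 matches for 3 of the searched motifs, NRF1, ETS and SP1. Ndufv3 holds 1 SP1 match, Sdhd 1 ETS match and Ndufc2 none, so the SP1 letters are shared by Ndufv3 and Cox6a1, which were called in opposite directions.

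Genes that work beside the members were read from the same fits. Of 25 complex IV assembly genes, 1 was called in KO cerebellum. This was Pet100, lower in KO by a log2 difference of -1.06 (SE 0.10, edgeR adjusted p = 0.0014), with means of 143 CPM in KO and 297 CPM in controls. For Pet100, 52.6% of the exonic bases lie in another gene, and Pcp2, a Purkinje marker, overlaps it on the opposite strand. Since pairs were counted for every gene they overlapped and without strand, the reads of these genes cannot be told apart. Of 21 genes of the citric acid cycle and pyruvate dehydrogenase, Suclg2, a subunit of succinyl-CoA ligase, was called higher in KO cerebellum, with means of 36.1 CPM against 22.6 CPM (log2 difference 0.67, SE 0.09, edgeR adjusted p = 0.0078). Most of that list lay the other way, with 14 of 21 below 0 and a median of -0.07. By edgeR 6 of the 21 had an unadjusted p under 0.05, against 13.4% of all genes. Without control 2, 15 were below 0 and the median was again -0.07. None of the genes for cytochrome c, Cyc1 and complex III assembly, other complex I assembly, ATP synthase assembly, ADP and ATP exchange or coenzyme Q synthesis, 8, 9, 4, 10 and 13 in number, was called in either tissue, and at most 1 gene of each of these lists had an unadjusted p under 0.05. Over all genes 1.55% were called in cerebellum. In cortex no gene of any of these lists was called, against 0% of all genes.

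Between tissues the same lists were set against the 27.6% of all genes that were higher and the 27.8% that were lower. Of the 21 citric acid cycle genes, 9 were higher and 2 lower in cerebellum at an adjusted p under 0.05, with a median log2 difference of 0.18, close to the 0.15 of the members. Of 10 genes for ADP and ATP exchange, which supply complex V, 4 were higher and 1 lower, with a median of 0.21. For 25 complex IV assembly genes the counts were 5 and 3, with a median of 0.06, and neither count exceeded the share of all genes. Among 23 regulators of mitochondrial biogenesis, 15 were higher and 4 lower with a median of 0.43. The list was not split by whether a gene promotes or represses biogenesis. Hif1a had the smallest p of this list, with means of 178 CPM in cerebellum and 67.8 CPM in cortex controls (log2 difference 1.39, SE 0.07, edgeR adjusted p = 2.6e-08). Esrrg and Esrrb, nuclear receptors of the ERR family, were higher in cerebellum by log2 differences of 1.76 (SE 0.12) and 2.82 (SE 0.17), with edgeR adjusted p of 4.8e-07 and 1.3e-07. Their means in controls were 101 and 13.8 CPM in cerebellum and 29.7 and 1.93 CPM in cortex.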

How the data were processed

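RNA from cerebellum and cortex of 5 mice was sequenced as 10 libraries. The authors deposited raw counts of read pairs per gene, made with STAR and featureCounts of Subread 2.0.1 on GRCm38, without strand, without multi-mapping pairs, and with a pair counted for each gene it overlapped. The 26345 of 81881 entries without a mouse gene identifier were left out (0.16% to 0.926% of counts). The members and gene lists were chosen with earlier results of these data known. KO and control were compared within each tissue, and tissues and the interaction in a fit of all 10 libraries, with edgeR 4.0.16 (quasi-likelihood F test, TMM, filterByExpr with a count minimum of 10, Benjamini-Hochberg over all genes tested). All 90 members passed the filter in each fit. The SE given with edgeR is the absolute log2 difference divided by the square root of F. DESeq2 1.42.0, other scalings, no filter, blocks and leaving out each library were alternatives. Scripts were tested on simulated data. Labels give separate mice as replicates. The tissues of a mouse are paired by its number in the labels, and their deviations correlated at 0.215 to 0.445. Named members were the 5 with the smallest p in each direction and KO comparison, the 6 largest differences in each direction past the adjusted p between tissues, the extremes per kb in each complex, the isoform families, complex II, the 3 smallest interaction p and the 3 on each side of the CPM limit, with up to 3 called genes of each list.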

Additional observations from a re-analysis of the deposited data

How the results depend on the processing

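The count of called members was 0 in both KO comparisons and 0 for the interaction under every alternative, including the replicate block. The replicate number does not name shared animals between control and KO (correlations of deviations -0.0528 to 0.136), and with it as a block the medians were -0.08 in cerebellum and -0.21 in cortex. Leaving out single libraries moved the median of the members from -0.10 to 0.04 in cerebellum, from -0.22 to 0.02 in cortex, from -0.054 to 0.21 for the interaction and from 0.04 to 0.32 between tissues. The sign changed only without control 2. Between tissues, 4 members were called, 4 with the animal as replicate block, where Ndufs1 took the place of Cox6a1, 10 without scaling beyond library totals, 25 without a minimum fold, 8 without control 2 in both tissues, an alternative chosen after seeing the data, and 1 to 14 without a single library. The 14 came without cortex control 2 and the 1 without cerebellum control 2, cortex control 1 or cortex control 3. Without scaling, the median of all genes shifted to 0.12, and the members lay 0.13 above it, against 0.14 in the reported fit. The cause of the shift with control 2 was not tested. Median levels of the members were 110 and 106 CPM per kb of the principal transcript, a length also chosen after seeing the data, and 67.1 and 60.9 per kb of joined exon, in cerebellum and cortex controls. The median SE of the members in cortex was 0.161 with all libraries and 0.074 without control 2, and in cerebellum 0.096 and 0.064, so the precision moved with that mouse.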

Other observations

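Cytosolic ribosomal proteins, whose transcripts are short and abundant like those of the members, also moved with control 2. None of 83 tested genes was called in KO cerebellum or cortex by edgeR, against 1.55% and 0% of all genes. In these tissues 1 and 0 had an unadjusted p under 0.05, against 13.4% and 5.93% of all genes. Without control 2 these became 55 in cerebellum, of which 1 passed the adjusted p, and 28 in cortex, with none called. Over all genes the counts without control 2 were 2922 of 19191 in cerebellum and 2126 of 18968 in cortex. In cerebellum 69 of them had a log2 difference above 0, with a median of 0.07 and, without control 2, of 0.19. In cortex 76 were below 0 with a median of -0.07, and without control 2 all 83 were above 0 with a median of 0.14. The 78 mitochondrial ribosomal proteins, which translate the mitochondrially encoded subunits, had medians of -0.10 in cerebellum and -0.13 in cortex, and of -0.04 and -0.01 without control 2.

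Glycolysis, the pathway that precedes respiration, was read between tissues without a test against the members. Its 16 symbols matched 17 entries, so not every entry is a separate symbol. Of its 17 tested entries, 9 were lower and 3 higher in cerebellum at an adjusted p under 0.05 by edgeR, against 27.8% and 27.6% of all genes, with a median log2 difference of -0.23, beside 0.15 for the members. Ldha, which makes lactate from pyruvate, had means of 152 CPM in cerebellum and 311 CPM in cortex controls (log2 difference -1.03, SE 0.07, edgeR adjusted p = 3.9e-07). Pfkp, a phosphofructokinase, was lower by -0.80 (SE 0.08, edgeR adjusted p = 5.3e-06), and Aldoc, an aldolase of astrocytes and Purkinje cells, was higher by 1.32 (SE 0.10, edgeR adjusted p = 6.4e-07). Between KO and control none of these entries was called by edgeR, against 1.55% of all genes in cerebellum and 0% in cortex. In each tissue 1 entry had an unadjusted p under 0.05, against 13.4% and 5.93% of all genes.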
